A study of Mus musculus with 8 samples.

Results

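The SLAM family receptors described here are Slamf1, Slamf7, Cd84, Cd244 and Cd48, 5 of the 11415 genes in the deposited table of macrophage RNA. They were taken from the table by gene symbol, and all 5 were found. Slamf1 and Cd244 had been chosen by their RNA levels with IL-10, which were above those with LPS alone, so their values with IL-10 are given as a description and are not tested. Slamf7, Cd84 and Cd48 were included as relatives of those receptors, and all 5 passed the filter on low values (a mean of at least 1 normalized read) in both mature and precursor RNA.

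SLAM (signalling lymphocytic activation molecule) receptors are cell-surface proteins of the immunoglobulin superfamily carried by blood cells. SLAMF1, SLAMF7 and CD84 each bind a copy of themselves on a neighbouring cell, whereas CD244 (2B4) binds CD48, a lipid-anchored protein with no signalling tail of its own. The tails of the other receptors recruit the small SH2 adaptors of the SAP family, of which SAP itself brings in the kinase Fyn. Where such adaptors are missing the same tails can recruit inhibitory phosphatases. In macrophages SLAMF1 is known for binding bacterial outer membrane proteins and for acting on the Beclin 1 lipid kinase complex and the NADPH oxidase of the phagosome, and SLAMF7 for working with the integrin Mac-1 in engulfing blood cells.

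RNA came from bone marrow-derived macrophages of 129S6/SvEvTac mice with the genotype IL10-/-RAG2-/-, grown in M-CSF conditioned medium. Both disrupted genes were shared by every group, so the cells made no functional IL-10 of their own, and no comparison tests the genotype. There were 4 groups of 2 libraries. The first was left untreated, and the second received LPS (a bacterial lipopolysaccharide) at 1 ng/mL over 195 min. In the third, IL-10 at 1 ng/mL accompanied the LPS over its whole 195 min (IL-10 throughout), and in the fourth IL-10 joined the 195 min of LPS only for its final 30 min (late IL-10), at a dose the labels leave unstated. The labels describe 2 independent macrophage pools, without the age or number of the mice.

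The table holds 1 mature mRNA value and 1 pre-mRNA value per gene and group, each the mean of 2 libraries' size-factor-normalized reads, from which both libraries' values were worked out. In each group and measure the library with the larger size factor is called A and the other B, and a letter alone does not tie libraries of different groups or measures together. The differences between A and B were correlated across genes from group to group, so the libraries could be matched in 2 sets: in mRNA LPS library A went with library B of the other 3 groups (r between groups 0.35 to 0.89 over 10609 genes), and in pre-mRNA the A libraries went together (0.34 to 0.8 over 9756 genes). This matching comes from the values and not from the labels, and genes are not independent replicates. A second fit with the matched set as a block was therefore added after seeing the data, and its values are given beside each receptor result whose call it changes. Reads over the table's genes numbered 21412968 to 53172133 per library for mRNA and 8661271 to 31508394 for pre-mRNA. The libraries of a group differed by more than 2-fold for 9.9% to 13.1% of genes in mRNA and for 9.15% to 20.5% in pre-mRNA, the highest share being that of the LPS pre-mRNA libraries. The smallest LPS mRNA count of any gene in a library was 11, so a gene with fewer LPS reads is not in the table. Of 9 macrophage marker symbols 8 were in the table, with a summed level of 502600 to 827300 normalized mRNA reads over the 8 libraries. Of 9 natural killer and innate lymphoid markers only Il7r was in the table, and of the other lists the table held 3 of 7 T cell markers, 1 of 6 B and plasma cell markers, 4 of 7 dendritic cell markers, 7 of 8 neutrophil markers, 1 of 6 mast cell markers and 2 of 6 megakaryocyte and stem cell markers.

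The 5 genes lie together on chromosome 1 (mm10, GENCODE M21 annotation) within 332 kb, from 171559193 to 171890718. Cd244 (listed there as Cd244a) spans 171559193 to 171609746 on the plus strand, Slamf7 171632403 to 171653035 on the minus strand, Cd48 171682009 to 171705258, Slamf1 171767127 to 171801184 and Cd84 171839697 to 171890718, the last 3 on the plus strand. In this annotation Cd244 overlaps Ly9 (171588624 to 171607410, minus strand), another SLAM receptor, while RefSeq ends Cd244 at 171585316, short of Ly9. The library kit keeps strand, but whether reads were counted by strand and with which annotation is not given in the sources used here. The Cd244 values are therefore uncertain to the extent that Ly9 reads could have been counted in them.

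The bases before the RefSeq starts (GRCm38.p6) of Slamf1, Cd244 and Slamf7 are shown because, of the 5 receptors, these had the largest differences between IL-10 throughout and LPS, the first 2 above LPS and Slamf7 below it. Each is 250 bases long and ends at the annotated start: Slamf1 at chr1:171766882-171767131 (plus strand), Cd244 at chr1:171558943-171559192 (plus strand) and Slamf7 at chr1:171649000-171649249 (minus strand). The RefSeq start used for Slamf7 lies inside the gene, downstream of its outermost annotated start at 171653037. For Cd244 RefSeq also lists a gene start further upstream, at 171558718, so that this window too lies inside the RefSeq gene, while the GENCODE gene starts directly after it. Capitals mark the AP-1 motif TGANTCA.
Slamf1: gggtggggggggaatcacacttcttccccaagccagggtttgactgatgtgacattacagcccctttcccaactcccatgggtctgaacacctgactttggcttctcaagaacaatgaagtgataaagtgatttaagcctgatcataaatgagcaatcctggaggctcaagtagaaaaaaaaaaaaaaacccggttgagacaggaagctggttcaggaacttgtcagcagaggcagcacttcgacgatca
Cd244: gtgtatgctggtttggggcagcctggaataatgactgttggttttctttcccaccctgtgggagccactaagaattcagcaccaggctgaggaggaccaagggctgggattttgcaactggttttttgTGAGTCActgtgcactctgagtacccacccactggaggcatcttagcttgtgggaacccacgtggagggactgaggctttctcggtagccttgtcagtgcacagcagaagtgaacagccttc
Slamf7: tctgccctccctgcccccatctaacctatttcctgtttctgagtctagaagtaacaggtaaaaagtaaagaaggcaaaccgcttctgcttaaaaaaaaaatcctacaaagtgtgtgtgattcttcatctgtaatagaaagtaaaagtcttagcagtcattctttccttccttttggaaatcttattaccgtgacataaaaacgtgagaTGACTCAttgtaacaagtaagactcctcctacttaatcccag
Searching both strands, TGANTCA was found in Slamf7 (42 bases before the start), in Cd244 (122 bases before it) and in the Cd84 window not printed here (229 bases before it). It was in 6.75% of 32851 RefSeq windows of this length. The STAT motif TTCNNNGAA (in 7.02% of windows), the PU.1 core GAGGAA (23.3%), the paired half-sites of the interferon-stimulated response element (2.98%) and the NF-kB consensus (3.9%) were found in none of the 5 windows, so no motif overlapped another. A match describes letters and shows no binding, and a missing match says only that these letters are not in this window.

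Slamf1, a self-binding receptor, was close to undetected in untreated macrophages. Its mRNA was 5.953 and 0 normalized reads in untreated libraries A and B (9 reads and 0 reads), 71.1 and 86.85 after LPS, 4574 and 2043 after IL-10 throughout, and 499.1 and 272.5 after late IL-10. No libraries of different groups overlapped: every LPS library was above both untreated ones, every late IL-10 library was above those, and both IL-10 throughout libraries were above all others. Slamf1 pre-mRNA was 1.065 and 1.457 in untreated cells (3 reads in all), 242.1 and 178.1 after LPS, 4914 and 1753 after IL-10 throughout, and 3078 and 1975 after late IL-10. In the precursor the ranges of the IL-10 groups overlapped each other and lay above the LPS libraries.

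Cd244 encodes the receptor for CD48 and was the other member picked for its level with IL-10. Its mRNA was 89.96 and 47.17 in untreated cells, 20.61 and 36.42 after LPS, 657.7 and 246.5 after IL-10 throughout, and 118.1 and 111.6 after late IL-10. The groups kept apart in the order LPS, untreated, late IL-10 and IL-10 throughout. Cd244 pre-mRNA was 179 and 209.8 in untreated cells, 27.03 and 8.098 after LPS, 214.6 and 201.7 after IL-10 throughout, and 490.1 and 625 after late IL-10. The precursor was lowest with LPS and highest with late IL-10, and its IL-10 throughout libraries overlapped the untreated ones. Beside it, the pre-mRNA of Ly9, whose reads could be shared, was 619 and 1154 in untreated cells, 707.4 and 871.9 after LPS, 604 and 649.4 after IL-10 throughout, and 1501 and 1432 after late IL-10. Both precursors were thus highest with late IL-10, and the other groups of Ly9 overlapped except LPS against IL-10 throughout. In mRNA Ly9 did not follow Cd244, with means of 4543 after LPS, 4346 after IL-10 throughout and 4831 after late IL-10. How many Ly9 reads were counted as Cd244 was not tested.

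Slamf7 (CRACC, CD319), a self-binding receptor, was highest in the LPS and late IL-10 groups. Its mRNA was 759.4 and 1512 in untreated cells, 3988 and 7844 after LPS, 2499 and 1297 after IL-10 throughout, and 9270 and 5244 after late IL-10. Both LPS libraries lay above both IL-10 throughout libraries and overlapped the late IL-10 ones, and the IL-10 throughout libraries overlapped the untreated ones. Slamf7 pre-mRNA was 223.2 and 515.8 in untreated cells, 3204 and 1632 after LPS, 806.8 and 414.2 after IL-10 throughout, and 4480 and 2342 after late IL-10. The precursor gave the same overlaps. The libraries of a group stood 1.77-fold to 2.31-fold apart for Slamf7 in each of the 4 groups and both measures, which limits the precision of its changes.

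Cd84, a self-binding receptor carried by macrophages, mast cells and platelets among others, was high in untreated cells. Its mRNA was 18580 and 11650 in untreated cells, 4199 and 5260 after LPS, 5479 and 4158 after IL-10 throughout, and 5231 and 4166 after late IL-10. All 6 LPS-treated libraries lay between 4158 and 5479, below both untreated libraries. Cd84 pre-mRNA was 8047 and 5061 in untreated cells, 1523 and 1448 after LPS, 1649 and 2281 after IL-10 throughout, and 1465 and 1424 after late IL-10. Here the IL-10 throughout libraries lay above the other LPS-treated ones and below the untreated ones.

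Cd48, the CD244 ligand, varied least between groups. Its mRNA was 3610 and 2662 in untreated cells, 2352 and 3201 after LPS, 2514 and 1549 after IL-10 throughout, and 3510 and 2374 after late IL-10, and the ranges of all 4 groups overlapped except IL-10 throughout against untreated. Cd48 pre-mRNA was 2461 and 2337 in untreated cells, 2404 and 2163 after LPS, 1705 and 1298 after IL-10 throughout, and 3377 and 2810 after late IL-10. In the precursor the IL-10 throughout libraries were the lowest and the late IL-10 libraries the highest, with no overlap with the rest.

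**Figure D1:**
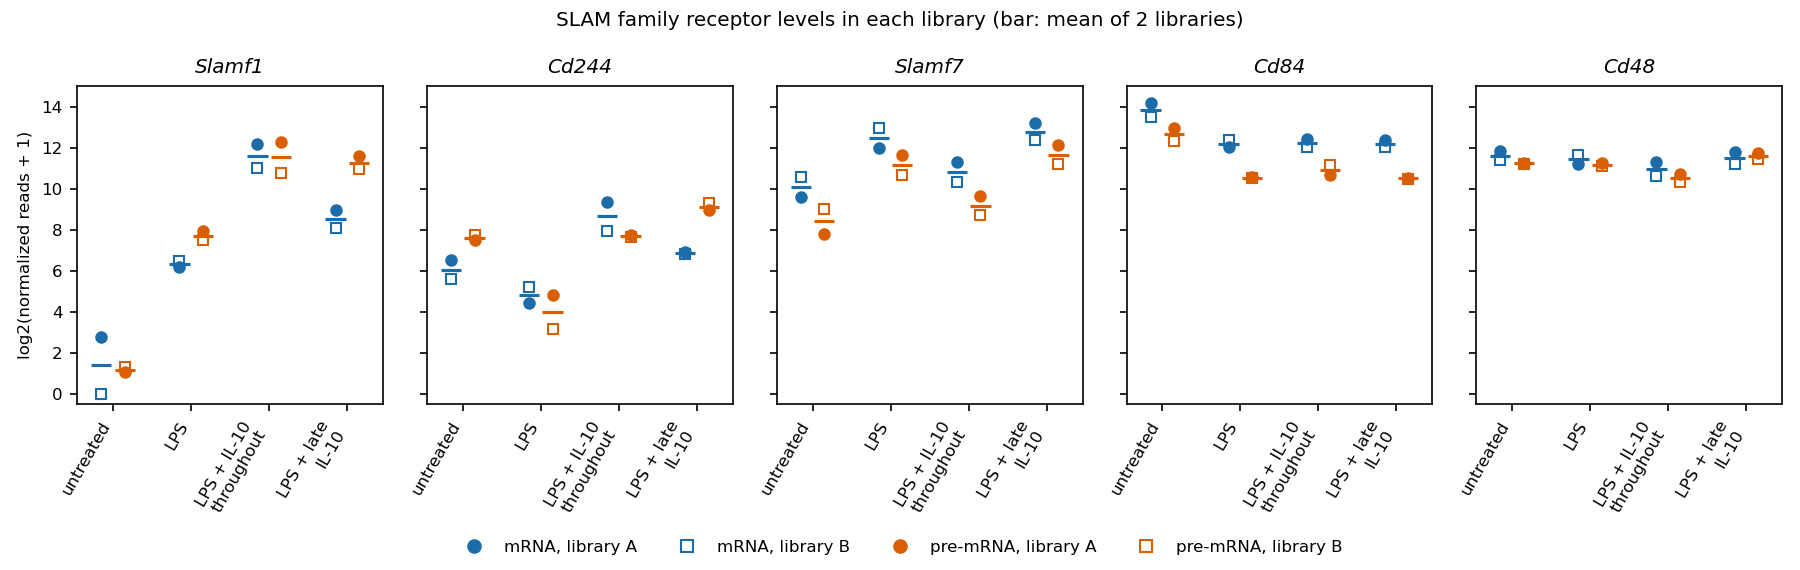
Log2 of normalized reads + 1 (vertical axis) of the 5 SLAM receptors in each group, with mRNA in blue and pre-mRNA in orange, filled circles for library A, open squares for library B and bars for the mean of 2 libraries. Slamf1 goes from near 0 in untreated cells to 2043 and 4574 normalized mRNA reads with IL-10 throughout, while the Cd48 libraries stay between 1549 and 3610.

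Per kilobase of annotated exon, the scale on which genes can be compared, Cd48 mRNA had the highest mean level in every group. In untreated cells it had 2640 normalized reads per kb, followed by Cd84 with 2410, Slamf7 with 248, Cd244 with 14.1 and Slamf1 with 0.484, and only the Cd48 and Cd84 libraries overlapped. With LPS the order was Cd48 (2340), Slamf7 (1290), Cd84 (754), Slamf1 (12.8) and Cd244 (5.85), and no neighbours in this order overlapped. With IL-10 throughout Slamf1 stood at 538 reads per kb, between Cd84 (768) and Slamf7 (415), and its libraries (332 and 743) overlapped those of both. Cd48 was at 1710 and Cd244 at 92.7 in that group. With late IL-10 the order was Cd48 (2470), Slamf7 (1590), Cd84 (749), Slamf1 (62.7) and Cd244 (23.6), with overlap between Cd48 and Slamf7 only.

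What LPS alone did to these receptors was asked by setting the LPS group against the untreated one. Slamf1 and Slamf7 rose and Cd84 fell, in mRNA and pre-mRNA alike, Cd244 fell in pre-mRNA, and Cd48 did not pass the test in either measure. The LPS libraries are also the baseline of the IL-10 contrast that picked Slamf1 and Cd244, so for these 2 genes the comparison is not independent of the choice. All changes below are on the log2(normalized reads + 1) scale with limma's standard error (SE, n = 2 libraries per group) and Benjamini-Hochberg adjusted p, and a change passed the test at an adjusted p under 0.05. In these bulk samples fewer cells of a type and less RNA per cell cannot be told apart.

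Slamf1 mRNA rose by 4.92 ± 0.88 (adjusted p = 0.0064), and its pre-mRNA by 6.53 ± 0.49 (adjusted p = 9.8e-05). With so few untreated reads the fitted size depends on the added 1, and the ratio of normalized reads had a 95% counting interval of 10.2 to 44.8 in mRNA (131 reads against 9) and was 181 in pre-mRNA (338 reads against 3, interval 61.6 to 884). The mRNA change was 3.52 without untreated library B and 6.31 without untreated library A, and passed the test both times. Slamf7 mRNA rose by 2.38 ± 0.52 (adjusted p = 0.014) and its pre-mRNA by 2.75 ± 0.55 (adjusted p = 0.006). The Slamf7 mRNA call depended on single libraries: the change was 1.89 without untreated library A (adjusted p = 0.081) and 1.89 without LPS library B (adjusted p = 0.078). Its pre-mRNA change was 2.15 without untreated library A and 3.35 without untreated library B, with adjusted p of 0.044 and 0.011.

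Cd84 fell in both measures, with log2 changes of -1.65 ± 0.29 in mRNA (adjusted p = 0.0059) and -2.10 ± 0.28 in pre-mRNA (adjusted p = 0.00098). Cd244 pre-mRNA fell by 3.61 ± 0.50 (adjusted p = 0.0012), a change of -4.42 without LPS library A and -2.80 without LPS library B, and its mRNA change of -1.22 ± 0.57 did not pass the test (adjusted p = 0.14) but passed with the block (SE 0.34, adjusted p = 0.021). Only 29 Cd244 pre-mRNA reads were counted over both LPS libraries against 480 untreated. The Cd48 changes were -0.18 ± 0.33 in mRNA (95% interval -0.96 to 0.61, adjusted p = 0.71) and -0.07 ± 0.22 in pre-mRNA (-0.60 to 0.45, adjusted p = 0.81).

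In all, 3 of 5 receptors passed the test in mRNA, 2 of them higher and 1 lower, against 35.7% of 11415 genes (19.2% higher and 16.5% lower). In pre-mRNA 4 of 5 passed, 2 in each direction, against 44% of 11131 genes (22.3% higher and 21.7% lower). These counts include Slamf1 in both measures and Cd244 in pre-mRNA, which are not independent of how the 2 genes were picked. Of the receptors not picked, Slamf7 (higher) and Cd84 (lower) passed in each measure and Cd48 in neither. With so large a share of all genes called, these counts do not set the 5 receptors apart. With the block 4 of 5 passed in mRNA, against 60.4% of all genes, and the same number in pre-mRNA, against 63%. The median change was -0.18 in mRNA and -0.07 in pre-mRNA, beside 0.01 and 0.00 over all genes. Under scaling to total reads, which moves the median of all genes to -0.74 in mRNA and -0.9 in pre-mRNA and the share of calls that are higher from 53.8% to 21.1% and from 50.7% to 20.9%, all 5 receptors passed in each measure, 2 higher and 3 lower. Cd48 was then at -0.92 (adjusted p = 0.023) in mRNA and -0.99 (adjusted p = 0.0074) in pre-mRNA, and Cd244 mRNA at -1.95 (adjusted p = 0.021).

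**Figure D2:**
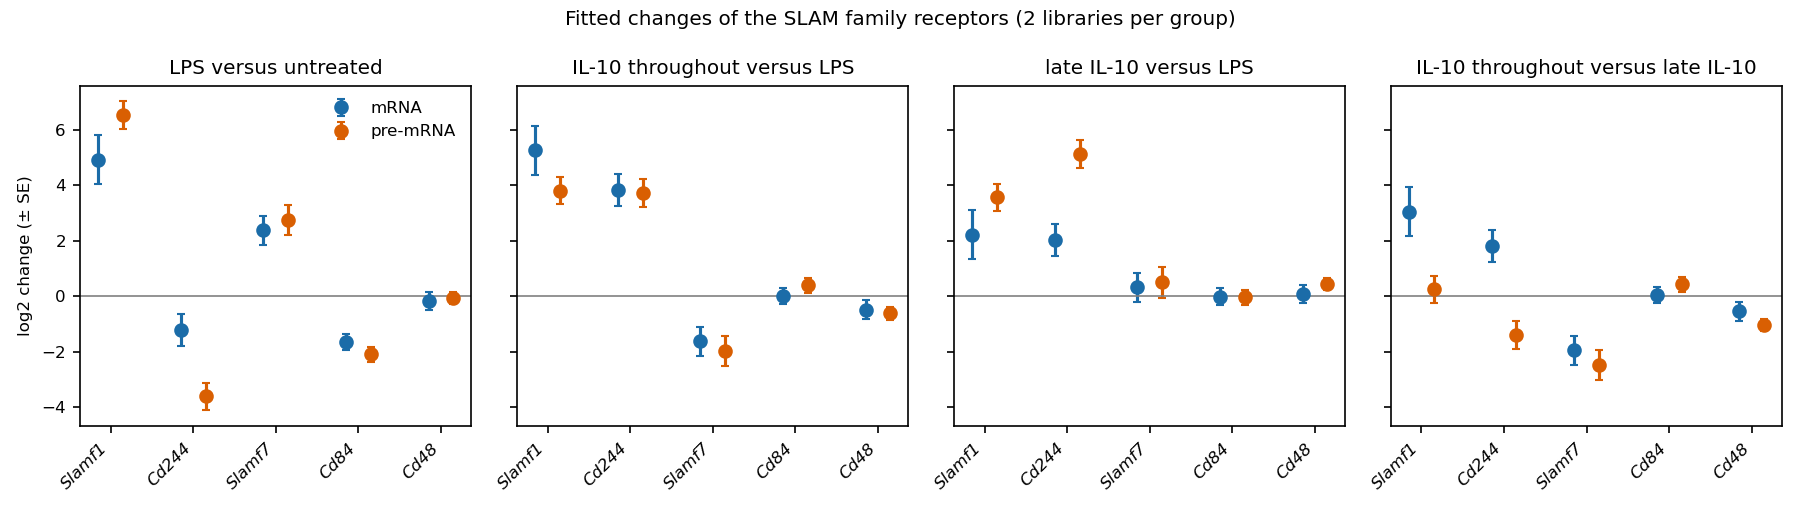
Fitted log2 change (vertical axis, bars are ± 1 SE, 2 libraries per group) of each receptor in the 4 comparisons, with mRNA in blue and pre-mRNA in orange. Slamf1 and Cd244 were picked for their level with IL-10, so their points in the last 3 panels are a description; Slamf7 lies at -1.63 and -1.98 and Cd84 at 0.02 and 0.39 with IL-10 throughout against LPS.

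Setting IL-10 throughout against LPS asked how the receptors stood when IL-10 was present from the start. Slamf1 and Cd244, picked for it, were higher in every IL-10 throughout library than in any LPS library, and the other 3 receptors did not pass the test. With the libraries matched Cd48 passed in both measures, Slamf7 in pre-mRNA only and Cd84 in neither. The mean level of Slamf1 was 41.9 times that with LPS in mRNA and 15.9 times in pre-mRNA. For Cd244 the corresponding ratios were 15.9 and 11.9. On the log2 scale these were differences of 5.26 ± 0.88 and 3.81 ± 0.49 for Slamf1 and of 3.83 ± 0.57 and 3.71 ± 0.50 for Cd244. Their size moved with single libraries: for Slamf1 pre-mRNA it was 3.07 without IL-10 throughout library A and 4.56 without library B, for Cd244 mRNA 3.12 and 4.53 without the same libraries, and for Cd244 pre-mRNA 4.52 without LPS library A and 2.90 without LPS library B.

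Against LPS, Slamf7 stood at -1.63 ± 0.52 in mRNA (95% interval -2.88 to -0.39, adjusted p = 0.2) and at -1.98 ± 0.55 in pre-mRNA (-3.27 to -0.70, adjusted p = 0.077) with IL-10 throughout. Its libraries did not overlap between the groups in either measure, and neither change passed the adjusted threshold. With the block the adjusted p was 0.066 in mRNA and 0.028 in pre-mRNA (SE 0.47 and 0.51). Cd48 stood at -0.48 ± 0.33 (adjusted p = 0.61) and -0.62 ± 0.22 (adjusted p = 0.15), with no overlap of libraries in pre-mRNA, and both values passed with the block (adjusted p = 0.036 and 0.017, SE 0.11 and 0.14). Cd84 stood at 0.02 ± 0.29 (-0.66 to 0.71, adjusted p = 0.99) and 0.39 ± 0.28 (-0.26 to 1.03, adjusted p = 0.47). Thus 0 of 3 receptors tested passed in mRNA, where 2.24% of all genes did (1.19% higher and 1.05% lower), and 0 of 3 in pre-mRNA, where 6.7% did (2.44% higher and 4.26% lower). At an unadjusted p under 0.05, 1 of 3 was lower in mRNA and 2 of 3 in pre-mRNA, and limma-voom called 0 in both. With the block 1 of 3 passed in mRNA, against 15.3% of all genes, and 2 of 3 in pre-mRNA, against 25.1%, each of them lower. The calls for Slamf7 pre-mRNA and for Cd48 against LPS therefore rest on whether the libraries are matched. Scaling to total reads moves the median of all genes to 0.25 in mRNA and 0.46 in pre-mRNA and the share of calls that are higher from 53.1% to 63.3% and from 36.5% to 52.6%, with 0 of the 3 receptors called.

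Late IL-10 asked what the last 30 min of IL-10 did. Slamf1 and Cd244 were again above LPS in every library, with a larger difference in the precursor than in the mRNA for both genes. Slamf1 stood at 4.89 times the LPS mean in mRNA and 12 times in pre-mRNA, or 2.22 ± 0.88 and 3.56 ± 0.49 on the log2 scale. Cd244 stood at 4.03 times in mRNA and 31.7 times in pre-mRNA, or 2.03 ± 0.57 and 5.12 ± 0.50. The Cd244 pre-mRNA difference was 5.93 without LPS library A and 4.31 without LPS library B. The difference between the measures was not tested, since both come from the same RNA and the genes were picked for these values.

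The other 3 receptors did not pass the test with late IL-10. In mRNA Slamf7 stood at 0.32 ± 0.52 (95% interval -0.92 to 1.56), Cd48 at 0.07 ± 0.33 (-0.71 to 0.86) and Cd84 at -0.01 ± 0.29 (-0.69 to 0.67), each with an adjusted p of 1. In pre-mRNA they stood at 0.50 ± 0.55 (-0.78 to 1.79), 0.43 ± 0.22 (-0.09 to 0.96) and -0.04 ± 0.28 (-0.69 to 0.61), with adjusted p of 1, 0.85 and 1. The limma test called 0 of 3 receptors and 0% of all genes in mRNA, where 92 genes were higher and 15 lower at an unadjusted p under 0.05 and limma-voom also called 0. In pre-mRNA it called 0 of 3, against 1.04% of all genes (0.979% higher and 0.0629% lower). At an unadjusted p under 0.05, 0 of 3 receptors passed in either measure, and limma-voom called 0. The block also gave 0 of 3 in both measures, against 0.0526% of all genes in mRNA and 4.29% in pre-mRNA.

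IL-10 throughout and late IL-10 share their LPS libraries, so the pair was also compared directly. Slamf1 mRNA was 8.58 times as high with IL-10 throughout as with late IL-10 (3.05 ± 0.88 on the log2 scale), while its pre-mRNA was 1.32 times as high with overlapping libraries (0.25 ± 0.49). That precursor difference was 0.99 without IL-10 throughout library B, -0.49 without library A of that group and -0.07 without late IL-10 library B. Cd244 mRNA was 3.94 times as high (1.80 ± 0.57, or 1.10 and 2.51 without IL-10 throughout library A or B), whereas its pre-mRNA was lower, at 0.373 of the late IL-10 mean (-1.41 ± 0.50). These 4 values describe genes picked for their IL-10 response.

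Slamf7 stood at -1.95 ± 0.52 in mRNA (adjusted p = 0.16) and -2.48 ± 0.55 in pre-mRNA (adjusted p = 0.059) with IL-10 throughout against late IL-10, with no overlap of libraries in either, and passed with the block (adjusted p = 0.045 and 0.015). Cd48 stood at -0.55 ± 0.33 (adjusted p = 0.54) and -1.05 ± 0.22 (adjusted p = 0.055), with no overlap in pre-mRNA, and also passed with the block (adjusted p = 0.026 and 0.0032). Cd84 stood at 0.03 ± 0.29 (adjusted p = 0.98) and 0.43 ± 0.28 (adjusted p = 0.43). Of these 3 receptors 0 passed in mRNA, against 1.09% of all genes (0.517% higher and 0.569% lower), and 0 in pre-mRNA, against 2.96% (0.755% higher and 2.2% lower). At an unadjusted p under 0.05, 1 was lower in mRNA and 2 in pre-mRNA, and limma-voom called 0. With the block 2 of 3 passed in each measure, both lower, against 13.7% and 23.8% of all genes. Without the block the 2 precursor values lay near the threshold: Slamf7 passed without LPS library A (adjusted p = 0.044) or B (0.042) and under scaling to total reads (-2.05, adjusted p = 0.047), and Cd48 without LPS library B (adjusted p = 0.049). The LPS libraries enter these fits only through the shared estimate of the spread. Scaling to total reads moves the median of all genes to 0.26 in mRNA and 0.44 in pre-mRNA and the share of calls that are higher from 47.6% to 56.3% and from 25.5% to 40.5%.

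Markers of other cells moved beside these receptors. The summed mRNA of the 4 dendritic cell markers in the table (Zbtb46, Xcr1, Ccr7 and Itgax) ran over the 2 libraries from 1343 to 2882 normalized reads in untreated cells, 9483 to 17790 after LPS, 2991 to 4548 after IL-10 throughout and 8908 to 15880 after late IL-10, and so was highest in the LPS and late IL-10 groups, as Slamf7 was. Itgax, which macrophages also express, made up most of it. With LPS all 4 markers rose in mRNA and 2 in pre-mRNA, where 19.2% and 22.3% of all genes rose. The neutrophil markers summed to 1893 to 2607, 2488 to 3000, 2138 to 2707 and 2465 to 3244 in the same order of groups. With LPS 5 of 7 rose in mRNA, and in pre-mRNA 4 of 6 rose and 1 fell. Most of the sum was Mmp8, which did not rise in mRNA (1599 and 2556 in untreated cells, 1423 and 1726 after LPS). The T cell markers Cd4, Lck and Cd28 summed to 3341 to 5608 untreated and to 409.1 to 956.7 over the LPS-treated libraries, and with LPS 1 of the 3 rose and 1 fell in mRNA. Most of this sum was Cd28, at 3317 and 5487 in untreated cells, 394.6 and 617.7 after LPS, 312.8 and 211.5 after IL-10 throughout and 588.6 and 373.7 after late IL-10, which fell with LPS and was highest in untreated cells, as Cd84 was. Lck, at 6.615 and 6.206 in untreated cells, 36.06 and 117.7 after LPS, 444.1 and 183.8 after IL-10 throughout and 349.7 and 133.4 after late IL-10, rose with LPS, and its group means had the order of those of Slamf1 mRNA, with overlap between the IL-10 groups. Il7r, the only natural killer and innate lymphoid marker in the table, stood at 16510 and 15300 in untreated cells, 4081 and 7147 after LPS, 6601 and 3024 after IL-10 throughout and 7168 and 4122 after late IL-10. It fell with LPS in mRNA (-1.56) and pre-mRNA (-1.91) and was highest in untreated cells, as Cd84 was. The mast cell marker Kit lay between 1.984 and 44.47 in all libraries, and the B and plasma cell marker Sdc1 ran from 2476 to 4377 in untreated cells, 4898 to 6689 after LPS, 8292 to 11870 after IL-10 throughout (the group highest for Slamf1 mRNA and Cd244 mRNA) and 5673 to 6956 after late IL-10. The megakaryocyte and stem cell markers Pf4 and Procr summed to 350 to 502.1, 2011 to 2543, 918.1 to 973.1 and 2005 to 2343. The macrophage markers summed to 502600 to 518300 in untreated cells, 780300 to 827300 after LPS, 614700 to 645100 after IL-10 throughout and 786600 to 802600 after late IL-10. The part of other cells in the receptor results was not tested.

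Of the 4 other SLAM receptors listed, Ly9, Slamf8 and Slamf9 were in the table and Slamf6 was not. Slamf9 mRNA was 72.1 and 88.13 in untreated cells, 221.5 and 462.2 after LPS, 128.7 and 138.1 after IL-10 throughout, and 409.6 and 240.3 after late IL-10. It rose with LPS by 1.99 ± 0.43 (adjusted p = 0.012) in mRNA and by 3.61 ± 0.72 (adjusted p = 0.0059) in pre-mRNA, the latter from 6 untreated reads (ratio 16.1, 95% counting interval 6.98 to 45.6). With IL-10 throughout it stood at -1.26 ± 0.43 against LPS (adjusted p = 0.23) in mRNA, with both libraries below both LPS ones, and at -1.91 in pre-mRNA (adjusted p = 0.17, or 0.032 with the block). The mRNA rise with LPS did not pass without untreated library A or without LPS library B. Ly9 mRNA, at 3811 and 8553 in untreated cells, 3959 and 5128 after LPS, 5069 and 3622 after IL-10 throughout and 5277 and 4385 after late IL-10, overlapped between all groups. It did not pass the test with or without the block. Under scaling to total reads Ly9 mRNA stood at -1.09 with LPS against untreated (limma adjusted p = 0.031). Its pre-mRNA stood at -1.23 with IL-10 throughout against late IL-10 (adjusted p = 0.07, or 0.011 with the block). Slamf8 mRNA could not be placed, because the libraries of each group stood far apart, for example 24.73 and 131.7 after LPS.

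Among the adaptors, Sh2d1a (SAP) and its relatives Sh2d1b1 and Sh2d1b2 were not in the table. Fyn, the kinase that SAP binds, had mRNA means of 1638 in untreated cells, 2665 after LPS, 3145 after IL-10 throughout and 2866 after late IL-10, and passed no test in either measure without the block. With it, Fyn pre-mRNA passed for LPS (1.12, adjusted p = 0.021) and for IL-10 throughout against late IL-10 (-1.44, adjusted p = 0.022). The CD48 partner Cd2, a lymphocyte receptor, was not in the table either. In total 33 of the 38 pathway genes were tested.

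With LPS against untreated 14 of these 33 passed in mRNA, 8 higher and 6 lower, and 16 in pre-mRNA, 12 higher and 4 lower, near the 35.7% and 44% of all genes that did. With the block 22 passed in mRNA and 28 in pre-mRNA, beside 60.4% and 63% of all genes. The medians were 0.18 and 0.57, beside 0.01 and 0.00 over all genes. Under scaling to total reads 20 passed in mRNA, 5 higher and 15 lower, and 22 in pre-mRNA, 7 higher and 15 lower. The mRNA count was 8 without untreated library A and 7 without LPS library B. Of 12 Src family and immunoreceptor signalling genes 5 rose in mRNA, among them the kinase Src (5.56 ± 0.41, adjusted p = 0.00021), which also rose under scaling to total reads. Of 5 genes of the Beclin 1 lipid kinase complex 4 fell in mRNA. The regulatory subunit Pik3r4 (-0.95 ± 0.17, adjusted p = 0.0068) and the catalytic subunit Pik3c3 (-1.03 ± 0.21, adjusted p = 0.011) had the smallest adjusted p, Uvrag had the largest fall (-1.30 ± 0.29, adjusted p = 0.014), and Atg14 was the other. Without LPS library B 0 of these 4 passed. In pre-mRNA Becn1 itself rose by 0.87 ± 0.19 (adjusted p = 0.0087), a value of -0.04 under scaling to total reads, while Pik3r4 and Atg14 fell. Of 6 inhibitory genes Inpp5d, the lipid phosphatase SHIP-1, fell by 2.63 ± 0.48 in mRNA (adjusted p = 0.0068) and stood at -3.43 ± 0.28 in pre-mRNA (adjusted p = 0.00014). Ptpn11, the phosphatase SHP-2, rose by 1.13 ± 0.17 (adjusted p = 0.0031) in mRNA, a value of 0.39 (adjusted p = 0.13) under scaling to total reads. Dok1 fell in mRNA (-0.78, adjusted p = 0.03) and did not pass without either untreated or either LPS library. Of 6 NADPH oxidase genes Cybb, the catalytic subunit, rose by 2.01 ± 0.36 in mRNA (adjusted p = 0.0063) and by 4.71 ± 0.53 in pre-mRNA (adjusted p = 0.00048), and the other 5 did not pass in mRNA without the block, with which Ncf1, Ncf4 and Rac2 rose.

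With IL-10 throughout against LPS 1 of 33 pathway genes passed in mRNA, beside 2.24% of all genes, and 5 in pre-mRNA, beside 6.7%. All of these were higher, where 1.19% and 2.44% of all genes were. With the block 5 passed in mRNA and 11 in pre-mRNA, beside 15.3% and 25.1% of all genes. The pre-mRNA calls with the block went both ways, with Cyba (-0.97, adjusted p = 0.0029) and Slamf9 (-1.91, adjusted p = 0.032) among the lower ones. The list had medians of -0.02 and 0.03 beside -0.02 and 0.00 over all genes. Vav1, an exchange factor downstream of immunoreceptors, had mRNA levels of 3252 and 1671 with LPS and 9412 and 13000 with IL-10 throughout. It rose by 2.25 ± 0.38 in mRNA (adjusted p = 0.038) and by 2.23 ± 0.24 in pre-mRNA (adjusted p = 0.0048). The mRNA call did not hold without either untreated library, LPS library B or either IL-10 throughout library, and the pre-mRNA call did not hold without IL-10 throughout library B. Itgam, the alpha chain of Mac-1, rose in pre-mRNA by 2.60 ± 0.25 (adjusted p = 0.0038), from 676.8 and 569.5 with LPS to 3056 and 4657, while its mRNA went from 10080 and 10650 to 8035 and 9572 without passing the test. Inpp5d pre-mRNA rose by 2.26 ± 0.28 (adjusted p = 0.0073), and Itgb2, the beta chain of Mac-1, and the kinase Fgr also rose in pre-mRNA. The pre-mRNA count was 3 without LPS library A, 3 without IL-10 throughout library A and 1 without IL-10 throughout library B.

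With late IL-10 against LPS the limma test called 0 of 33 pathway genes in mRNA (0 at an unadjusted p under 0.05 and 0 with limma-voom). It called 1 in pre-mRNA, Vav1, which rose by 1.83 ± 0.24 (adjusted p = 0.014) and did not pass without either LPS library or either late IL-10 library, while 1.04% of all genes passed. With the block the counts were 0 and 6, beside 0.0526% and 4.29% of all genes. Between IL-10 throughout and late IL-10 the limma test called 0 in mRNA (2 higher and 2 lower at an unadjusted p under 0.05, and 0 with limma-voom). In pre-mRNA it called 3, beside 2.96% of all genes. The counts were 3 and 9 with the block, beside 13.7% and 23.8% of all genes. The 3 called without it were higher with IL-10 throughout, namely Inpp5d (2.71 ± 0.28, adjusted p = 0.014), Itgam (2.45 ± 0.25, adjusted p = 0.014) and Itgb2 (1.79 ± 0.29, adjusted p = 0.03). The count was 0 without either IL-10 throughout library or without late IL-10 library A, and 1 without late IL-10 library B.

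**Figure D3:**
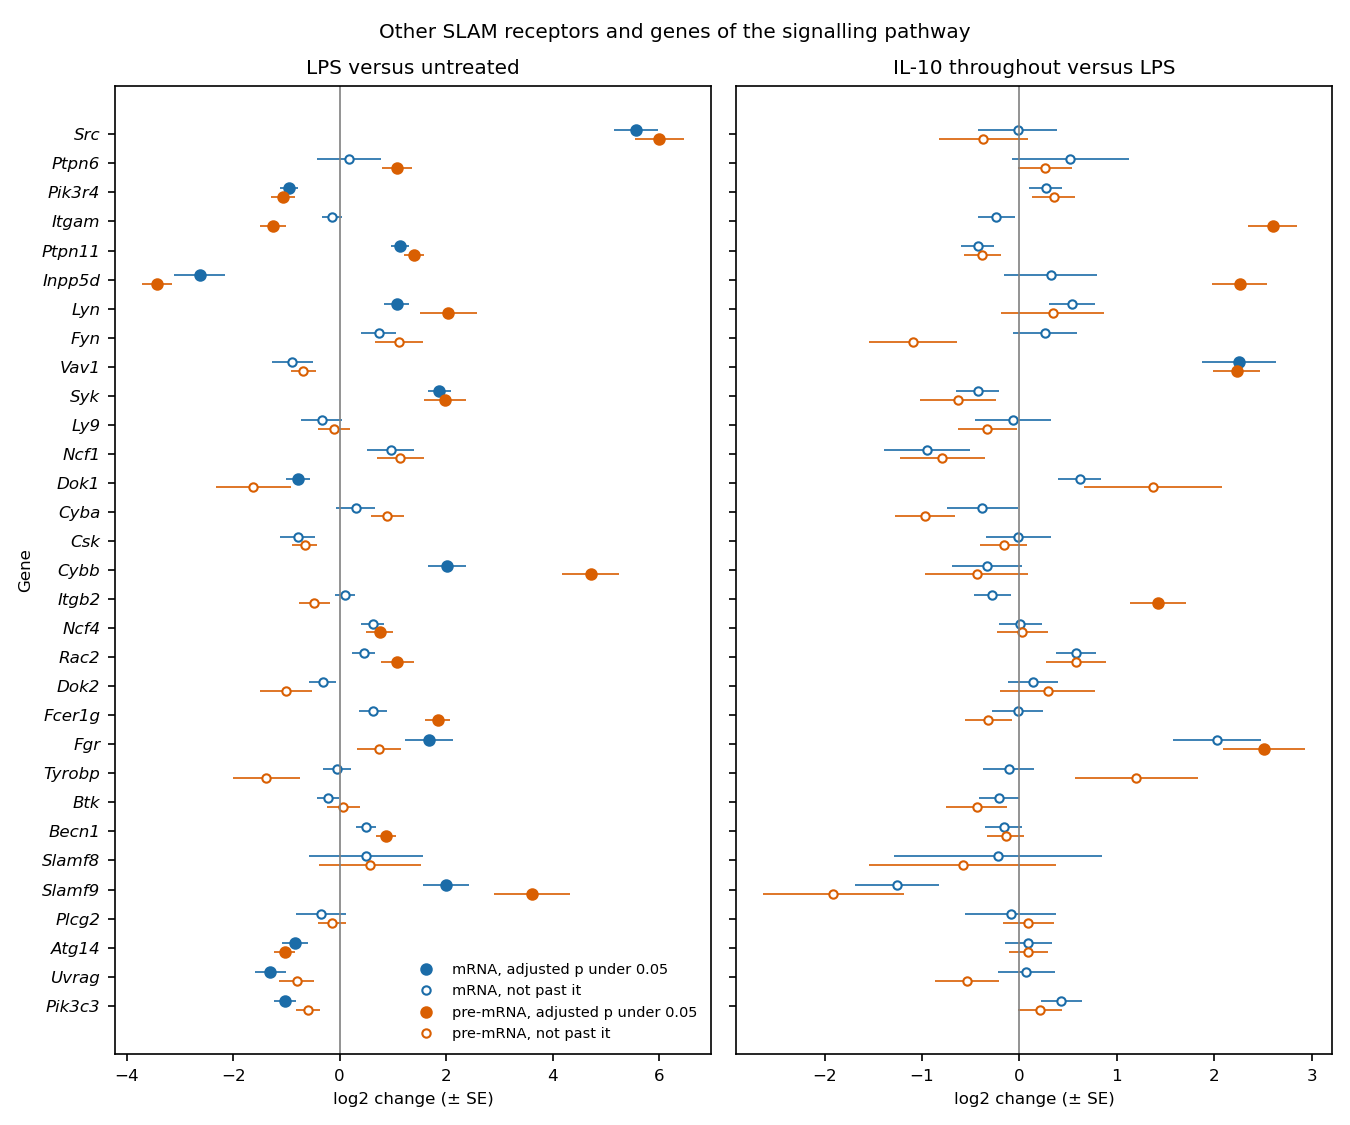
Fitted log2 change (horizontal axis, bars are ± 1 SE, 2 libraries per group) of other SLAM receptors and pathway genes, ordered as in the table, for LPS against untreated (left) and IL-10 throughout against LPS (right), with mRNA in blue and pre-mRNA in orange and filled points for an adjusted p under 0.05. Filled points lie on both sides of 0 in the LPS panel, and in the IL-10 panel they are Vav1, Itgam, Inpp5d, Itgb2 and Fgr, all to the right of 0.

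Genes lying within 250 kb of the 5 receptors were set beside them. RefSeq lists 31 other genes there, of which 14 were in the table, Ly9 included. With IL-10 throughout against LPS their mRNA changes ran from -1.49 (Pvrl4, a cell adhesion molecule, adjusted p = 0.12) to 1.10 (Alyref2, adjusted p = 0.36). The test called 0 of 14, beside 2.24% of all genes, and 3 with the block, beside 15.3%. In pre-mRNA 1 of 13 tested passed, beside 6.7% of all genes, namely Pvrl4, which fell by 1.65 ± 0.34 (adjusted p = 0.033). The block gave 3 there, beside 25.1%. Slamf1 and Cd244, at 5.26 and 3.83 in mRNA, lay outside the mRNA range, but they were chosen for that. Slamf7, which was not, lay just below that range, at -1.63 ± 0.52 (adjusted p = 0.2) against -1.49 ± 0.38 for Pvrl4. In pre-mRNA Slamf7 also lay below the neighbours, at -1.98 ± 0.55 (adjusted p = 0.077) against -1.65 ± 0.34 for Pvrl4, the lowest of them. With LPS against untreated 1 of 14 neighbours rose and 2 fell in mRNA, where 35.7% of all genes passed, and in pre-mRNA 4 of 13 rose and 1 fell, where 44% did. With the block 8 and 6 of these neighbours passed, beside 60.4% and 63% of all genes.

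**Figure D4:**
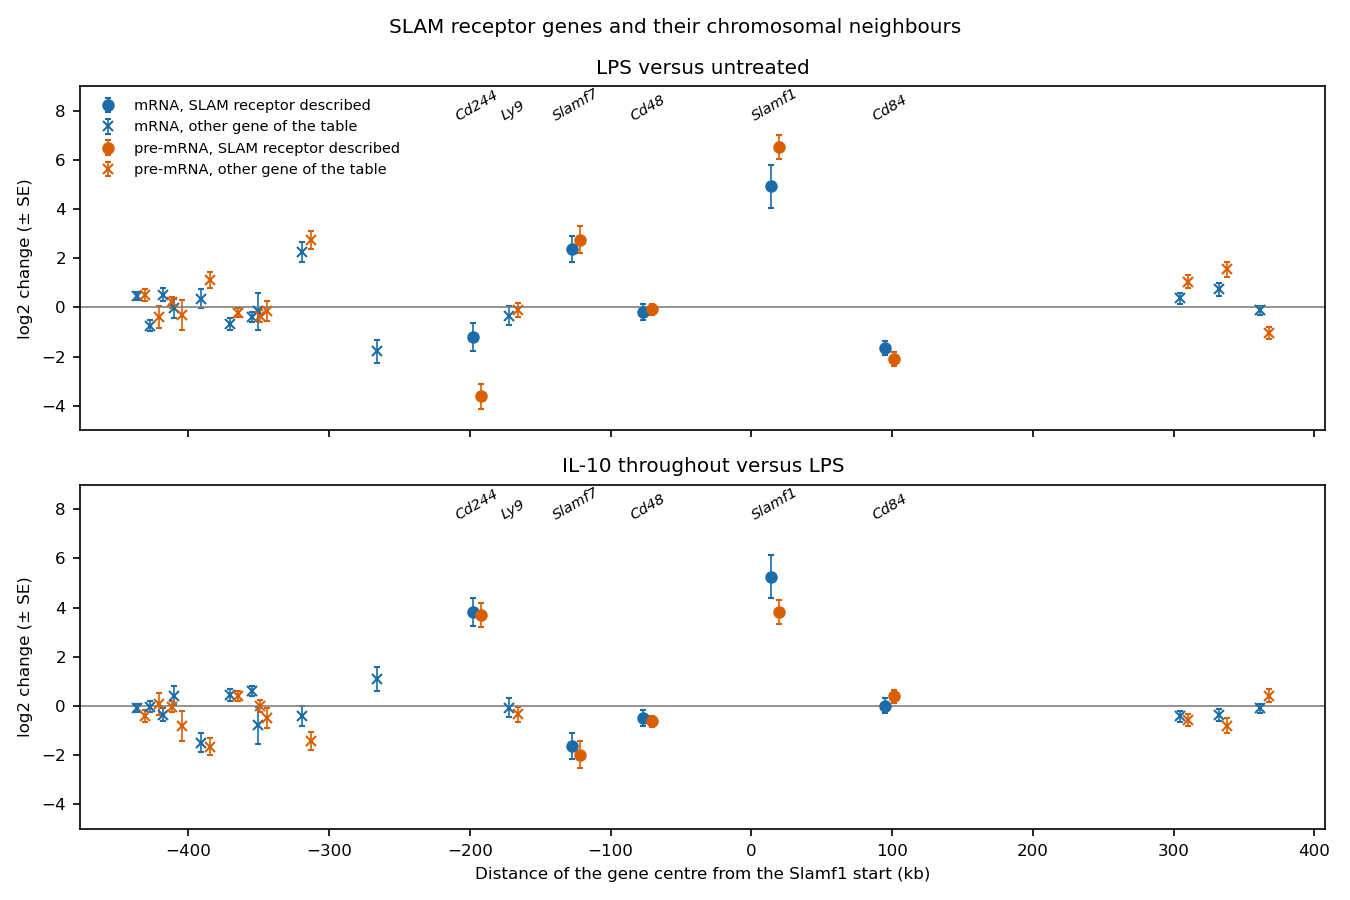
Fitted log2 change (vertical axis, bars are ± 1 SE) against the distance in kb of each gene's centre from the Slamf1 start (horizontal axis), for LPS against untreated (top) and IL-10 throughout against LPS (bottom), with the 5 receptors as circles and other genes of the table within 250 kb of them as crosses, mRNA in blue and pre-mRNA in orange. With IL-10 throughout Slamf1 and Cd244 lie at 5.26 and 3.83 in mRNA, while the crosses lie between -1.49 and 1.10. Slamf7 mRNA lies at -1.63, just below the lowest mRNA cross.

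Across the 8 mRNA libraries the receptors' log2 levels were most alike to different genes, given by Pearson's r as a description, since the libraries share groups and the best of 10364 genes was taken. Slamf1 was most like Mt2, a metallothionein (r = 0.995, group means 232.2 in untreated cells, 2791 after LPS, 32800 after IL-10 throughout and 9418 after late IL-10), then Cnn3 and Arg2, the mitochondrial arginase (both 0.993). Slamf7 was most like Uap1 (0.99), Fbxo7 (0.989) and Mov10 (0.988), Cd244 like Spidr (0.968), Phyhd1 (0.963) and Timm10b (0.945), Cd48 like Sfmbt1 (0.976), B3galnt1 and Serinc3 (both 0.975), and Cd84 like Rttn and Deptor (both 0.996) and Sdccag8 (0.992). Between the receptors themselves r ran from -0.74 (Slamf1 with Cd84) to 0.68 (Slamf1 with Cd244), and Cd244 and its ligand Cd48 had an r of -0.28.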

How the data were processed

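RNA of bone marrow-derived macrophages was measured by ribosome-depleted, directional sequencing in 4 groups of 2 libraries. The authors deposited 1 table of 11415 genes with a normalized signal per group for mRNA and for pre-mRNA. Trim Galore, DESeq and mm10 are named per the submitters' processing notes (versions, aligner, counting, annotation and pre-mRNA assignment: not given in the sources used here). Each deposited signal value could be written as the sum of 2 constants per column, each multiplied by a whole number (largest relative error 5.4e-15, no second solution), so both libraries' reads were recovered for 100% of values. The recovery and the test were checked on simulated data. Recovered reads go beyond the table as deposited, every p-value rests on them, and those p-values measure the spread between these libraries, which may be partly technical.

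Log2(value + 1) was fitted with limma-trend 3.58.1 (R 4.3.3), in a single fit per measure over its 8 libraries, with a group term alone, keeping genes whose mean reached 1 (11415 in mRNA, 11131 in pre-mRNA). This scale understates the change of low genes. The spread behind each SE is pooled over the 4 groups. The planned count test was not run: the table as deposited holds no counts, and limma-voom on the recovered reads, added after seeing the data, took its place. Also added then was a fit with a block over libraries matched by the correlation of their A minus B differences between groups (genes averaging at least 50, receptors and pathway genes left out). The pairing comes from these values, not from the labels, and the correlations were 0.34 to 0.89. Other alternatives were an added constant of 5, no filter, a minimum mean of 10, scaling to total reads, only the groups compared, and leaving out each library. Counting intervals are 95% exact binomial and cover counting error only.

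The receptors, the pathway and marker lists and the rule for named genes were chosen with earlier results of these data known. Named were the 5 receptors, the other SLAM receptors and SAP adaptors, up to 2 genes per list and comparison with the smallest adjusted p among those passing, the 3 genes most alike to each receptor among genes averaging at least 50 and leaving out predicted ones, and the 2 chromosomal neighbours with the largest change with IL-10 throughout. Other genes, named to complete a count, were chosen after their values were seen. Results of some genes of these lists are not reported here. Promoter windows come from RefSeq (GRCm38.p6), where all 5 receptors matched (Cd244 as Cd244a).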

Additional observations from a re-analysis of the deposited data

Results flagged for a closer look

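For 3 pathway genes the pre-mRNA change with IL-10 throughout differed from that with late IL-10 by limma's test of the difference (adjusted over 11131 genes). Itgam had a log2 difference of 2.45 ± 0.25 (SE, adjusted p = 0.014), its pre-mRNA being 676.8 and 569.5 after LPS, 3056 and 4657 after IL-10 throughout, and 707.3 and 676.6 after late IL-10. Inpp5d differed by 2.71 (SE 0.28, adjusted p = 0.014), at 1678 and 1539 after LPS, 6141 and 9622 after IL-10 throughout, and 1065 and 1293 after late IL-10. Itgb2 differed by 1.79 (SE 0.29, adjusted p = 0.03), at 2524 and 3686 after LPS, 7524 and 8854 after IL-10 throughout, and 2117 and 2630 after late IL-10. In the 8 fits that left out a library, Itgam passed in 4, Inpp5d in 5 and Itgb2 in 2.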

How the results depend on the processing

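Over all receptor values and alternatives, 557 log2 changes kept direction and, where tested, side of the threshold. Of the rest, 11 moved by more than the spread, 15 newly passed, 2 no longer passed and 15 changed sign. Of the counts of genes called 276 stayed within 1.5 times and 84 did not. The cause of each shift below was not tested. With scaling to total reads the receptors called went from 3 to 5 for LPS in mRNA and from 0 to 1 for IL-10 throughout against late IL-10 in pre-mRNA. With only the groups compared in the fit, pathway genes called went from 1 to 0 for IL-10 throughout in mRNA and for late IL-10 in pre-mRNA, and without a filter from 5 to 3 for IL-10 throughout in pre-mRNA. Leaving out a library gave 0 to 2 receptors for IL-10 throughout against late IL-10 in pre-mRNA and 2 to 3 for LPS in mRNA. It gave 7 to 14 pathway genes for LPS in mRNA, 0 to 1 for IL-10 throughout in mRNA, 1 to 6 in pre-mRNA, 0 to 1 for late IL-10 in pre-mRNA and 0 to 3 for IL-10 throughout against late IL-10 in pre-mRNA. Sign changes came from leaving out a library, all in values that had not passed. Their ranges were -0.40 to 0.05 for Cd48 with LPS in mRNA (0.04 and 0.05 without untreated A or LPS A) and -0.15 to 0.00 in pre-mRNA, -0.21 to 0.35 with late IL-10 in mRNA (-0.15 without LPS A), -0.18 to 0.22 for Cd84 with IL-10 throughout in mRNA (-0.14 without LPS A), -0.17 to 0.23 against late IL-10 (-0.13 without late IL-10 B) and -0.17 to 0.15 with late IL-10, -0.49 to 0.99 for Slamf1 pre-mRNA between the IL-10 groups (-0.07 without late IL-10 B), and -0.17 to 0.81 for Slamf7 with late IL-10 in mRNA (-0.09 without late IL-10 A). Over all alternatives the genes called among all genes ran from 1860 to 6894 for LPS in mRNA (3150 to 7010 in pre-mRNA), 43 to 1743 for IL-10 throughout (62 to 2798), 0 to 6 for late IL-10 (29 to 478) and 0 to 1562 between the IL-10 groups (1 to 2653), the highest of each with the replicate block. Where a left-out library leaves 1 in its group, that library is assumed to vary like the others. The replicate block was fitted over libraries matched by their values. The labels number the replicates, but the recovered libraries A and B could not be tied to those numbers. With this block receptors called went from 0 to 1 for IL-10 throughout in mRNA, to 2 in pre-mRNA, and to 2 and 2 against late IL-10. Pathway genes called went from 14 to 22 for LPS in mRNA and 16 to 28 in pre-mRNA, from 1 to 5 and 5 to 11 for IL-10 throughout, from 1 to 6 for late IL-10 in pre-mRNA, and from 0 to 3 and 3 to 9 between the IL-10 groups. Among the receptor values tested, the calls that the block changed are those given beside the results above (8 log2 changes that newly passed). Slamf1 and Cd244 with IL-10 were not tested and are left out of this statement. The planned count model and its TMM scaling were not run, since the table as deposited holds no counts and limma-voom on the recovered reads took their place. With 2 libraries per group, and 3 to 9 untreated Slamf1 reads, depth and number limit every size given.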
